A study of Mus musculus with 28 samples.

Results

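Romidepsin and vorinostat inhibit histone deacetylases, the enzymes that take acetyl groups off histones and other proteins. The genes described here are 31 genes of cholesterol and fatty acid synthesis and of its control. They were chosen by name from the pathway, with earlier results of these data known. Their levels were followed in mouse T cells over all 14 groups of the study. Of the 31, 30 had a probe set that names the gene alone, and 29 were tested among 9871 genes of 18194 in all. Acat2, which joins acetyl groups at the start of the mevalonate pathway, had no named probe set and was not analysed here. Abca1, a cholesterol exporter, lay under the detection level in all 28 arrays and was not tested.

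Splenic CD4 or CD8 T cells, purified by negative selection, were stimulated for 2 days with anti-CD3 at 3 µg/ml and anti-CD28 at 5 µg/ml. All groups share that stimulation. Drug followed for 1 day: romidepsin doses were 2, 10 and 30 nM, vorinostat doses were 0.5, 2 and 10 µM, and controls had none. Each group had 2 arrays (replicates 1 and 2). The labels give no vehicle, strain, sex or age, and they do not say whether replicates came from separate animals, so a p-value measures only the spread between these arrays. A level is a log2 value on which 1 unit is a doubling, and a change is the drug level minus the control level of the same cell type. Errors after ± are standard errors of a change from the fit without the replicate number, n is 2 for every mean, and a gene is called when its adjusted p is under 0.05 over all tested genes. In every replicate 1 array the lowest value was 2.2684 and in every replicate 2 array 2.2545, and arrays with the same replicate number deviated together, so counts are also given from a fit with the replicate number as a block.

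Cells build cholesterol from acetyl groups through mevalonate, the isoprenoid units, squalene and lanosterol, and they build fatty acids from the same acetyl groups through malonyl units. The transcription factors SREBP1 and SREBP2 switch on the genes of both routes. SCAP carries them to the Golgi for activation when sterols are scarce, and INSIG proteins hold the complex in the endoplasmic reticulum when sterols are plentiful. Activated T cells raise both routes to make membranes for dividing cells. Sterol excess is sensed by liver X receptors, which raise the exporters ABCA1 and ABCG1.

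RefSeq promoter windows of the GRCm38.p6 build, 250 bases before to 50 after a start, were found for 24 of the 31 genes, in 32 windows, and only the 250 bases before the start were searched for motifs. These bases are shown for 5 of the 9 genes called with a drug, among them Hmgcs1, the one that holds the sterol element searched for. Capitals mark exact matches on either strand of the sterol element (TCACNCCAC), the CCAAT box (CCAAT), the Sp1 box (GGGCGG) and the E-box (CACGTG). The regions, in the order printed, are chr11:120824548-120824797 on the minus strand, chr5:28071162-28071411 on the plus strand, chr10:76531355-76531604 on the plus strand, chr1:169969206-169969455 on the minus strand and chr13:119690101-119690350 on the plus strand. Each ends at the base before a start that the RefSeq table lists. The Insig1 and Hmgcs1 regions lie just outside the annotated gene, those of Lss and Hsd17b7 overlap its first bases, and that of Fasn lies inside the annotated gene.
Fasn: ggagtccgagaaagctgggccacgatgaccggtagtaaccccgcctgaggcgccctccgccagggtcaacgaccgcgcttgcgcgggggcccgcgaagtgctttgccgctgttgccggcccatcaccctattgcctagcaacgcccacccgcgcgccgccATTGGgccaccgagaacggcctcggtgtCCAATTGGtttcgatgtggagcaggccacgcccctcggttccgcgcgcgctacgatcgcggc
Insig1: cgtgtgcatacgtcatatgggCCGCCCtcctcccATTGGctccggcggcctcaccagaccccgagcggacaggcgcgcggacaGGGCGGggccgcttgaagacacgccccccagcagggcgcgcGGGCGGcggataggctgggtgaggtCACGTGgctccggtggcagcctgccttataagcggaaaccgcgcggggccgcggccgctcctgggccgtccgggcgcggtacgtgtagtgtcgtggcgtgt
Lss: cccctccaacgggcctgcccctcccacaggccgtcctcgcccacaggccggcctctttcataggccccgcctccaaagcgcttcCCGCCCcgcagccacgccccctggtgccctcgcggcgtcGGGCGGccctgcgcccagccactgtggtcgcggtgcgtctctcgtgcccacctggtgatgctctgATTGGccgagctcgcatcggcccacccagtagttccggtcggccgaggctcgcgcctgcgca
Hsd17b7: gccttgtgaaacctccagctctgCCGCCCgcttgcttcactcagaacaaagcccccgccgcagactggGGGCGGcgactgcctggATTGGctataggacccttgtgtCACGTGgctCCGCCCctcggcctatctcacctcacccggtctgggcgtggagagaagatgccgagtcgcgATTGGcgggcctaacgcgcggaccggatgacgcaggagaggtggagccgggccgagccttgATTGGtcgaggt
Hmgcs1: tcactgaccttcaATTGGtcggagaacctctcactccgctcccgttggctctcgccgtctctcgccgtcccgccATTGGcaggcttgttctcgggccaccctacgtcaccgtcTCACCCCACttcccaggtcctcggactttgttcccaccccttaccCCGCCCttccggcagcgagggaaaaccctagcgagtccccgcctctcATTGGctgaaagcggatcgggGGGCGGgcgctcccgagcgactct
The Hmgcs1 sterol element begins at position -137 from the start, and it was the only match among the 32 windows (3.125%), against 1.05% of all 32851 promoter windows. CCAAT boxes were in 20 of the 32 windows (62.5%), against 33.8% of all windows, Sp1 boxes in 24 (75%), against 32.7%, and E-boxes in 6 (18.75%), against 6.02%. Of the printed sequences, those of Insig1 and Hsd17b7 hold an E-box and that of Fasn holds no Sp1 box in these letters, while all 5 hold a CCAAT box, of which 2 overlap in Fasn. These matches describe letters and were not set against the changes.

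The T cell markers Cd3d, Cd3e, Cd3g and Cd247 were over the detection level of 4.27 in all 28 arrays. Their levels moved with the top doses, most in Cd247, with CD4 group means of 8.53 with romidepsin at 30 nM and 8.94 with vorinostat at 10 µM, against 11.88 in controls, and CD8 means of 8.72 and 7.55 at these doses, against 10.84 in controls. Cd8a was at least 9.34 in CD8 arrays and at most 6.07 in CD4 arrays, where it was still over the level in 12 of 14. Cd8b1, the other CD8 chain, was over it in all 14 CD4 arrays (5.32 to 8.28, and 9.94 to 12.60 in CD8 arrays), and Cd4 was at most 2.34 in CD8 arrays. Cd4 itself was over that level in 11 of the 14 CD4 arrays, with group means of 3.44 with romidepsin at 30 nM and 3.55 with vorinostat at 10 µM, against 8.28 in controls. Of 5 macrophage and monocyte markers only Cd68 was detected, at 5.03 to 7.44, and Csf1r, Adgre1, Lyz2 and Itgam were under the level in all arrays. The dendritic markers Itgax and Flt3 and the natural killer marker Ncr1 were under it in all arrays, and the dendritic marker Zbtb46 was over it in 1 CD4 and 2 CD8 arrays, at up to 4.54, while Klrd1, which CD8 T cells can also express, had group means in CD8 cells of 8.89 with romidepsin at 30 nM and 6.14 with vorinostat at 10 µM, against 12.93 in controls. Of the 4 B cell markers read, Pax5 was under the level throughout and Cd79a over it in 1 of 28 arrays, but Cd79b reached 9.86 and Ms4a1 8.16. The log2 of the summed level of these 4 markers moved with the drugs. It was 4.67 to 6.17 with romidepsin at 30 nM and 4.51 to 6.68 with vorinostat at 10 µM in CD4 cells, against 6.78 to 10.28 in their controls. For CD8 cells the sum was 4.73 to 7.14 and 4.55 to 6.41 at these doses, against 6.95 to 9.06 in their controls. The summed macrophage and monocyte level, carried by Cd68, was 7.10 to 7.57 with romidepsin at 30 nM and 7.29 to 7.60 with vorinostat at 10 µM in CD8 cells, against 6.04 to 6.89 in controls. In CD4 cells it was 6.66 to 6.83 and 6.46 to 6.66 at these doses, against 6.35 to 7.05 in controls. The 3′ minus 5′ difference of the actin probe sets, which grows as RNA degrades, was 1.55 and 0.97 with romidepsin at 30 nM and 1.62 and 1.09 with vorinostat at 10 µM in CD4 cells, against 0.94 and 0.78 in controls. CD8 cells had 1.23 and 0.90 with romidepsin at 30 nM and 1.43 and 1.16 with vorinostat at 10 µM, against 0.86 and 0.79 in controls. The same difference of the Gapdh probe sets did not rise in every array. In CD4 cells it was 0.24 and 0.09 with romidepsin at 30 nM and 0.34 and 0.08 with vorinostat at 10 µM. The CD4 controls had 0.20 and 0.16. In CD8 cells it was 0.18 and 0.07 with romidepsin and 0.26 and 0.13 with vorinostat at these doses, against 0.20 and 0.08 in controls. The part of these shifts in the results below was not tested, and a loss of one kind of cell cannot be told apart from less RNA per cell.

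In 12 comparisons of a drug dose with control, 9 of the 29 genes passed the test at least once, which gave 25 calls, 19 lower and 6 higher. Those 9 are 31% of the 29, against 29% of all tested genes called at least once. By direction, 7 of the 29 were lower at least once (24.1%, against 12.1% of all genes) and 2 higher (6.9%, against 17.2%). With the block 27 of the 29 were called at least once (93.1%), against 87.5% of all genes. Genes of fatty acid synthesis (Fasn, Scd2), of sterol synthesis (Lss, Cyp51, Hmgcs1, Pmvk) and the sterol sensor gene Insig1 fell, and the sterol reductase gene Hsd17b7 and the exporter gene Abcg1 rose. No gene was called in both directions. The most calls were in CD8 cells with vorinostat at 10 µM, where 7 of 29 fell and 2 rose (31.0%), against 20.5% of all genes called (8.5% lower and 12% higher). With the block 17 were lower and 5 higher, against 64% of all genes (32.4% lower and 31.6% higher). The median change of the 29 genes there was -0.56, against 0.00 for all tested genes, and 23 lay below 0.

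**Figure D1:**
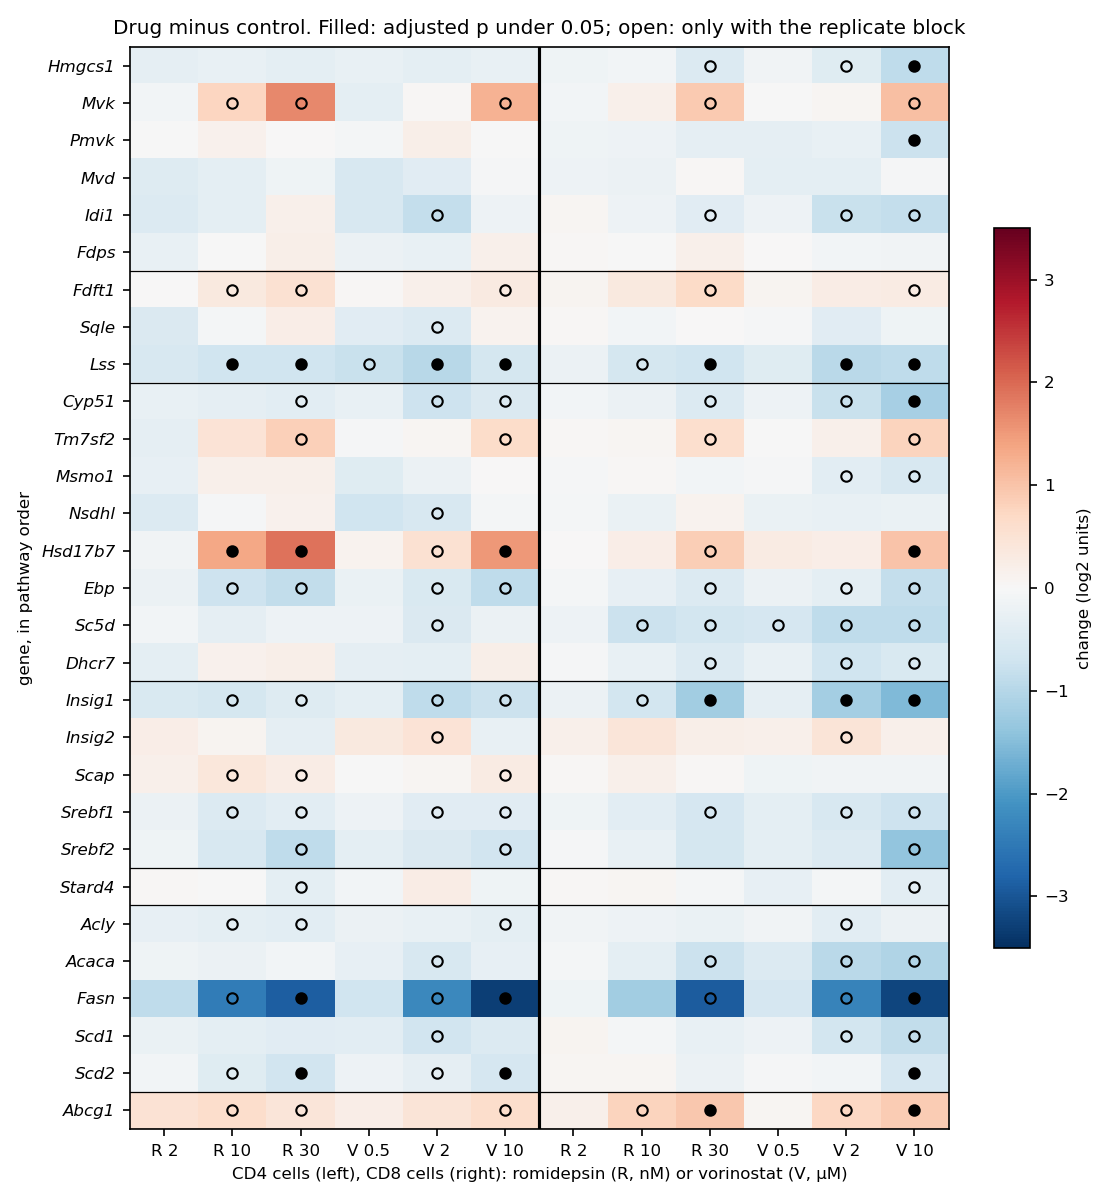
Change of each of 29 genes (rows, in pathway order, lines between roles) with each drug dose (columns) minus control, in log2 units, CD4 cells left and CD8 cells right. Filled circles mark the 25 calls without the block and open circles calls made only with it. Fasn is the darkest fall, at -3.29 with vorinostat at 10 µM in CD4 cells, and Hsd17b7 the darkest rise, at 1.90 with romidepsin at 30 nM in CD4 cells.

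At the middle and top doses elsewhere, the share of called members was near or under that of all genes, except with vorinostat at 2 µM. In CD4 cells, romidepsin at 10 nM gave 2 calls of 29 (Lss lower, Hsd17b7 higher), against 8.64% of all genes (2.32% lower, 6.32% higher), and 12 with the block, against 48.2%. Romidepsin at 30 nM gave 4 calls (3 lower, 1 higher), against 21.2% (7.91% lower, 13.3% higher), and 16 with the block, against 63.7%. Vorinostat at 2 µM gave 1 call (Lss lower), against 1.42% (0.334% lower), and 15 with the block, 13 of them lower, against 28.3% (15.9% lower). At 10 µM it gave 4 calls (3 lower, 1 higher), against 18% (7.1% lower, 10.9% higher), and 15 with the block, against 61.2%. In CD8 cells romidepsin at 30 nM gave 3 calls (2 lower, 1 higher), against 10.8% (2.93% lower, 7.89% higher), and 16 with the block, against 52.4%. Vorinostat at 2 µM gave 2 calls in CD8 cells (Lss and Insig1 lower), against 3.3% (0.75% lower), and 16 with the block, 14 of them lower, against 36.8% (20.5% lower).

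Romidepsin at 10 nM in CD8 cells gave no limma call, against 1.12% of all genes called, and 4 calls with the block, against 17.2%. At an unadjusted p under 0.05, a looser rule by which all genes were not counted, 3 members passed there. None of the 29 was called by limma at the lowest doses without the block. There the counts at an unadjusted p under 0.05 were 3 with romidepsin at 2 nM and 2 with vorinostat at 0.5 µM in CD4 cells, and 0 and 1 in CD8 cells. At the adjusted p, where no member was called, the shares of all genes called were 0.0304% and 0.0101% in CD4 cells and 0% and 0% in CD8 cells. With the block, vorinostat at 0.5 µM gave 1 lower call in CD4 cells (Lss), against 0.253% (0.0608% lower), and 1 in CD8 cells (Sc5d), against 1.13% (0.436% lower). Romidepsin at 2 nM gave 0 calls with the block in either cell type, against 0.922% and 0%. In CD4 cells 24 of the 29 lay below control with romidepsin at 2 nM (median -0.24, against 0.00 for all tested genes) and 25 with vorinostat at 0.5 µM (median -0.25, against -0.02). In CD8 cells the counts were 17 (median -0.05, against 0.00) and 24 (median -0.18, against -0.05). Both drugs share the same 2 control arrays within each cell type.

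**Figure D2:**
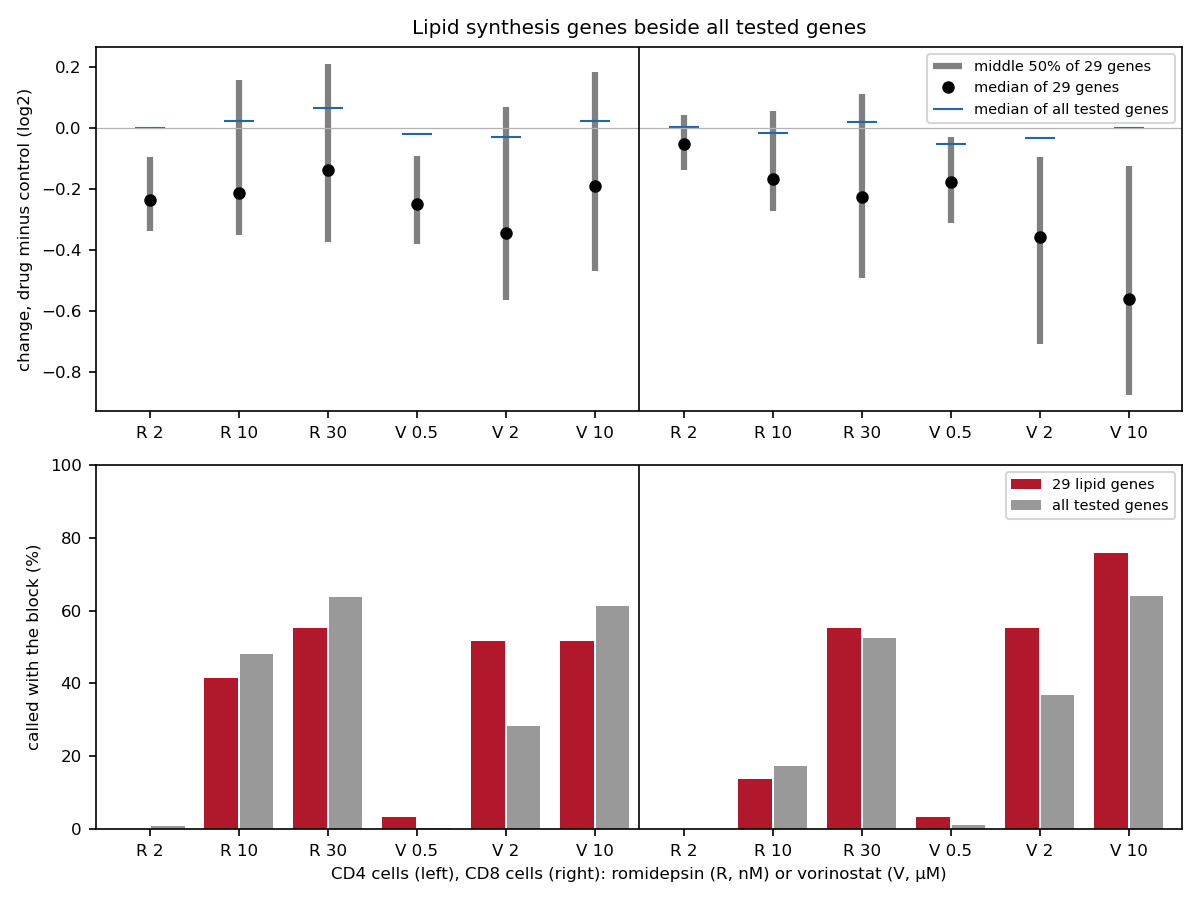
Upper panel: median change (points) and middle 50% (bars) of the 29 genes with each dose, in log2 units, beside the median of all tested genes (blue dashes). Lower panel: percent of the 29 genes and of all tested genes called with the replicate block. The median of the 29 is the lower in every column, and the red bar is well above the grey one at 2 µM vorinostat in both cell types.

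Medians of the 29 genes lay under those of all tested genes in each of the 12 comparisons. The median was -0.34 with vorinostat at 2 µM in CD4 cells (-0.35 and -0.36 in replicates 1 and 2), against -0.03 for all tested genes. The CD8 median was -0.36 (-0.49 and -0.15), against -0.03, and at 10 µM the replicate medians were -0.69 and -0.44. Comparisons within a cell type share their control arrays, so the 6 of each are not independent of each other.

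The counts leaned on single arrays. In CD8 cells with vorinostat at 10 µM, 2 calls were left without control replicate 1 and 3 without vorinostat replicate 1. Without control replicate 1 the counts in CD4 cells were 0 with romidepsin at 10 nM, 1 with romidepsin at 30 nM and 0 with vorinostat at 2 or 10 µM, and in CD8 cells 0 with romidepsin at 30 nM or vorinostat at 2 µM. They were also 0 without either romidepsin replicate at 10 nM in CD4 cells and 0 without either vorinostat replicate at 2 µM in CD4 cells. With vorinostat at 10 µM in CD4 cells 1 call was left without its replicate 1 and 2 without its replicate 2. In CD8 cells 0 were left without romidepsin 30 nM replicate 1 and 0 without vorinostat 2 µM replicate 1, and 1 without either control replicate 2 or vorinostat 2 µM replicate 2. Fits with 1 array left out hold no block, so by construction part of the difference between replicate numbers enters the change.

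**Figure D3:**
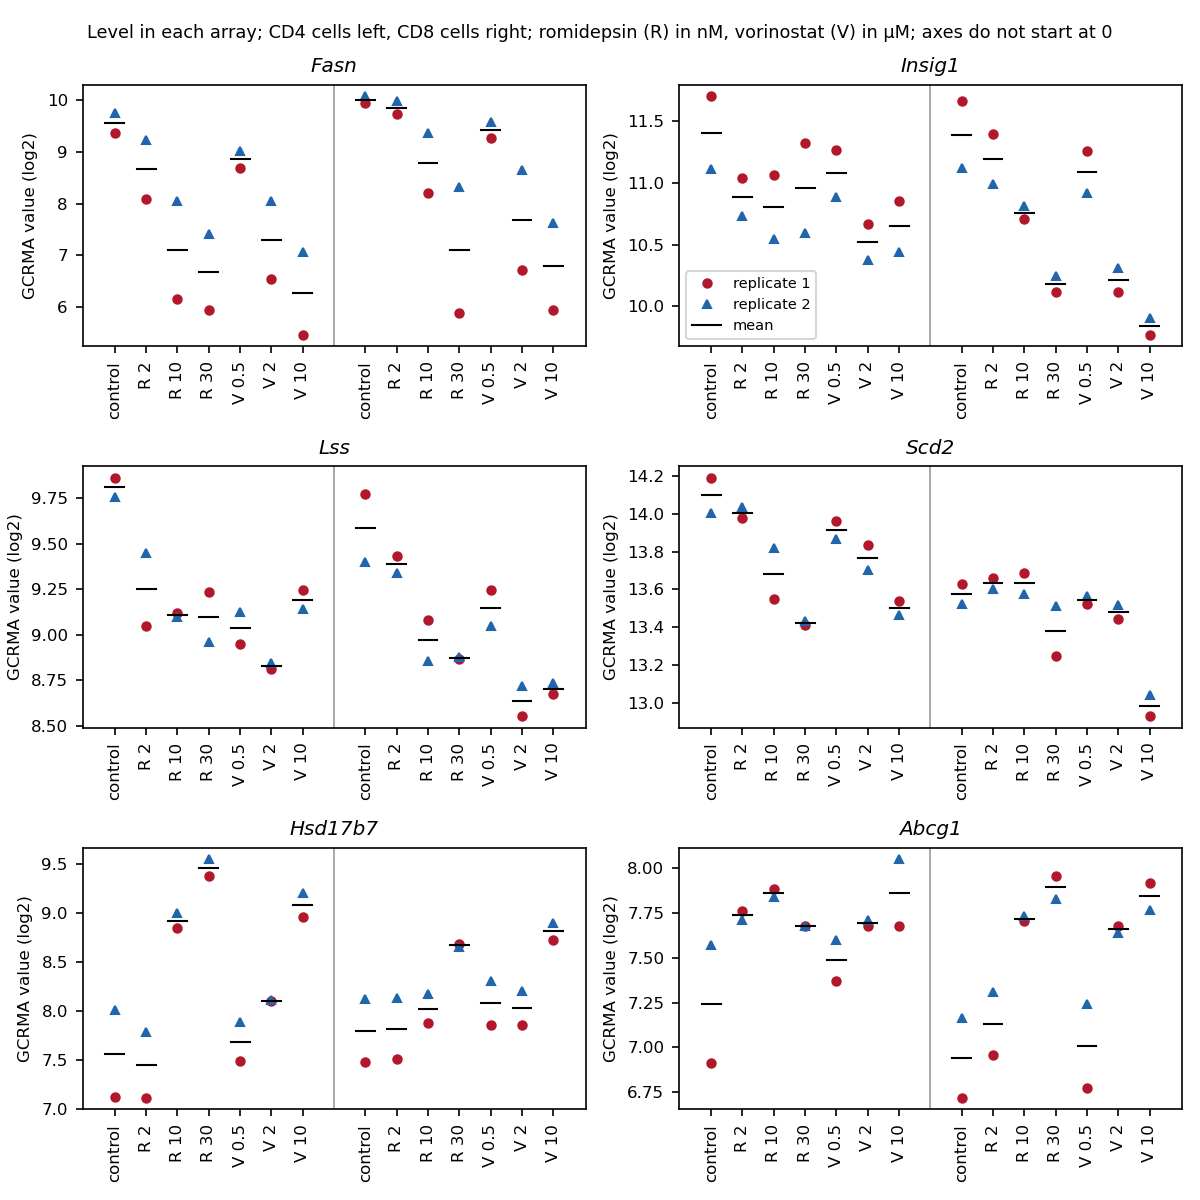
Level of 6 genes in each of the 28 arrays (log2 GCRMA value; circles replicate 1, triangles replicate 2, lines group means), with CD4 cells left and CD8 cells right and control at the low end of each dose series. By group mean, Fasn, Insig1, Lss and Scd2 lie lower and Hsd17b7 and Abcg1 higher than control at the top doses, and at the top doses the 2 Fasn replicates lie further apart than in the controls.

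Fatty acid synthesis held the largest fall. Fasn encodes fatty acid synthase, which builds palmitate from acetyl and malonyl units, and it was measured by 1 probe set. In CD4 cells its level was 5.95 and 7.42 at 30 nM romidepsin and 5.47 and 7.07 at 10 µM vorinostat, against 9.36 and 9.75 in controls. CD8 cells had Fasn levels of 5.95 and 7.64 with vorinostat at 10 µM and 5.89 and 8.32 with romidepsin at 30 nM, against 9.96 and 10.08. Every drug array at these doses lay below both controls of its cell type, and replicate 1 lay lower than replicate 2 each time. Fasn fell by 3.29 ± 0.91 on the log2 scale with vorinostat at 10 µM in CD4 cells (9.76-fold lower, limma adjusted p = 0.0189). The fall in CD8 cells was by 3.22 ± 0.91 (9.35-fold, limma adjusted p = 0.0191), and that with romidepsin at 30 nM in CD4 cells by 2.87 ± 0.91 (limma adjusted p = 0.0343). Romidepsin at 30 nM gave -2.91 ± 0.91 in CD8 cells, which missed the threshold (limma adjusted p = 0.0518) and passed it with the block (adjusted p = 0.000229).

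Lower doses of the drugs gave intermediate Fasn levels. With romidepsin at 10 nM Fasn was at 6.16 and 8.05 in CD4 cells and at 8.20 and 9.38 in CD8 cells. At 2 µM vorinostat it was at 6.55 and 8.05 in CD4 cells and at 6.71 and 8.65 in CD8 cells. The lowest doses left it at 8.10 and 9.23 (romidepsin) and 8.69 and 9.03 (vorinostat) in CD4 cells, still below both controls, and at 9.73 and 9.99 and at 9.27 and 9.58 in CD8 cells. None of these passed without the block. With it, Fasn was called at -2.45 (romidepsin 10 nM) and -2.26 (vorinostat 2 µM) in CD4 cells and at -2.34 (vorinostat 2 µM) in CD8 cells. The calls at the top doses ended when single arrays were left out. With vorinostat at 10 µM in CD4 cells the change was -2.49 without its replicate 1, -3.48 without control replicate 1 and -3.10 without control replicate 2. The CD8 change was -2.38, -3.29 and -3.16 without the same arrays. The romidepsin change at 30 nM in CD4 cells was -2.14 without its replicate 1, -3.06 without control replicate 1 and -2.68 without control replicate 2. With all genes tested, the romidepsin call in CD4 cells also ended (adjusted p = 0.0691).

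Scd2 encodes a stearoyl-CoA desaturase, which puts a double bond into saturated fatty acids. It lay at 13.41 and 13.44 with romidepsin at 30 nM and at 13.54 and 13.47 with vorinostat at 10 µM in CD4 cells, against 14.19 and 14.003 in controls. Among CD8 cells Scd2 lay at 12.93 and 13.04 with vorinostat at 10 µM, against 13.63 and 13.53. The groups did not overlap. Scd2 fell by 0.67 ± 0.15 with romidepsin at 30 nM in CD4 cells (limma adjusted p = 0.00488), and by 0.59 with vorinostat at 10 µM in both CD4 (adjusted p = 0.0123) and CD8 cells (adjusted p = 0.0119). A second, dimmer probe set of Scd2 gave -1.32, -1.53 and -1.04 in these comparisons. With the block Scd2 was also lower in CD4 cells with romidepsin at 10 nM (-0.41) and vorinostat at 2 µM (-0.33). In CD8 cells with romidepsin at 30 nM the 2 arrays lay at 13.25 and 13.51, a change of -0.19 that was not called with or without the block. The Scd2 calls ended without CD4 control replicate 1 (-0.58 with romidepsin, -0.50 with vorinostat) and, for vorinostat in CD4 cells, without its replicate 1 (-0.63) or 2 (-0.56). In CD8 cells the call ended without control replicate 1 (-0.54) or vorinostat replicate 1 (-0.53), and with the mean of all probe sets (-0.72, adjusted p = 0.0776).

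The 3 other fatty acid synthesis genes were called only with the block, each lower. Acaca, whose acetyl-CoA carboxylase makes the malonyl units, was at 8.26 and 8.77 with vorinostat at 10 µM in CD8 cells, against 9.34 and 9.77 (-1.04 ± 0.41, limma adjusted p = 0.0866, with the block 6.88e-05). It was also lower with the block in CD8 cells with romidepsin at 30 nM (-0.74) and vorinostat at 2 µM (-0.94), and in CD4 cells with vorinostat at 2 µM (-0.56). Acly, whose product cleaves citrate to supply acetyl groups in the cytosol, differed by -0.36 to -0.34 in the 4 comparisons called with the block, 3 of them in CD4 cells. Scd1, a second desaturase, was called with the block in both cell types with vorinostat at 2 µM (-0.68 in CD4 and -0.65 in CD8 cells) and at 10 µM in CD8 cells (-0.85). A second, dimmer probe set of Scd1 gave -0.61, -0.60 and -1.37 in these comparisons. With vorinostat at 10 µM in CD4 cells it gave -1.15, where the one used gave -0.47.

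Among the genes that make squalene and lanosterol, Lss gave the most calls of any member. It encodes lanosterol synthase, which closes squalene epoxide into the first sterol. In CD4 cells its level was 9.12 and 9.10 with romidepsin at 10 nM and 9.24 and 8.96 at 30 nM, against 9.86 and 9.76 in controls. Vorinostat gave 8.81 and 8.85 at 2 µM and 9.24 and 9.14 at 10 µM. CD8 cells had Lss at 8.87 and 8.88 with romidepsin at 30 nM, 8.55 and 8.72 with vorinostat at 2 µM and 8.67 and 8.73 at 10 µM, against 9.77 and 9.40. Each of these arrays lay below both controls. Lss fell in 7 of the 12 comparisons (and in 9 with the block), by 0.62 to 0.98, the largest fall being with vorinostat at 2 µM in CD4 cells (-0.98 ± 0.18, 1.97-fold lower, limma adjusted p = 0.011). Its smallest adjusted p, 0.00265, was with vorinostat at 10 µM in CD8 cells (-0.88 ± 0.18).

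The Lss falls rest on the brightest of its probe sets, with a mean level of 9.12. That set is of a kind that can also bind other transcripts. The second detected set had a mean of 7.55. It gave 0.24 and -0.05 with romidepsin at 30 nM and vorinostat at 10 µM in CD4 cells, and 0.05 and -0.33 in CD8 cells. With romidepsin at 10 nM in CD4 cells it gave 0.11. With vorinostat at 2 µM it gave -0.33 in CD4 and -0.43 in CD8 cells. With the mean of all probe sets none of the 7 calls held (changes of -0.60 to -0.25). Leaving out 1 array ended most of them as well. In CD4 cells these were romidepsin at 10 nM without its replicate 1 (-0.71), its replicate 2 (-0.69), control replicate 1 (-0.65) or control replicate 2 (-0.75), and at 30 nM without its replicate 2 (-0.57) or control replicate 1 (-0.66). With vorinostat in CD4 cells they were 2 µM without its replicate 1 (-0.96), its replicate 2 (-0.997) or control replicate 1 (-0.93), and 10 µM without its replicate 1 (-0.67), its replicate 2 (-0.57), control replicate 1 (-0.57) or control replicate 2 (-0.67). In CD8 cells they were romidepsin at 30 nM without its replicate 1 (-0.70), its replicate 2 (-0.72) or control replicate 1 (-0.52), vorinostat at 2 µM without its replicate 1 (-0.86) or control replicate 1 (-0.76), and at 10 µM without control replicate 1 (-0.69). After quantile normalization across all arrays, 6 of the 7 missed the threshold (adjusted p = 0.0835 to 0.168).

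Fdft1 and Sqle act just before Lss and were called only with the block. Fdft1, whose squalene synthase makes the first committed sterol precursor, lay at 11.27 and 12.02 with romidepsin at 30 nM in CD8 cells, against 10.67 and 11.27 (0.67 ± 0.41, limma adjusted p = 0.378, with the block 0.00035). It was higher with the block in 5 comparisons, by 0.30 to 0.67. The probe set used is of a kind that can also bind other transcripts. A second, dimmer set of Fdft1 gave smaller rises in each of these comparisons. They ran from 0.02 with vorinostat at 10 µM to 0.42 with romidepsin at 30 nM, both in CD8 cells. Sqle, which encodes squalene epoxidase, was lower with the block with vorinostat at 2 µM in CD4 cells, at 8.85 and 9.20, against 9.47 and 9.56 (-0.49, adjusted p = 0.042 with the block).

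The 8 genes that turn lanosterol into cholesterol moved in both directions. Hsd17b7, which encodes a keto reductase of sterol synthesis, had the largest rise of all members. In CD4 cells it lay at 8.84 and 9.00 with romidepsin at 10 nM and at 9.38 and 9.54 at 30 nM, against 7.12 and 8.01 in controls. Vorinostat gave 8.10 and 8.12 at 2 µM and 8.95 and 9.21 at 10 µM in CD4 cells. In CD8 cells it gave 8.73 and 8.90 at 10 µM, and romidepsin at 30 nM 8.69 and 8.65, against 7.48 and 8.12. All these arrays lay above both controls. Hsd17b7 rose in CD4 cells by 1.35 ± 0.32 with romidepsin at 10 nM (limma adjusted p = 0.0135), by 1.90 ± 0.32 at 30 nM (3.72-fold, adjusted p = 0.000476) and by 1.51 ± 0.32 with vorinostat at 10 µM (adjusted p = 0.00325). In CD8 cells it rose by 1.01 ± 0.32 with vorinostat at 10 µM (adjusted p = 0.0335).

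With vorinostat at 2 µM in CD4 cells Hsd17b7 was called only with the block (0.54), and its 2 further probe sets gave 0.01 and -0.01 there. In CD8 cells romidepsin at 30 nM gave 0.87 ± 0.32, called only with the block (limma adjusted p = 0.0998, with the block 0.00143), and at 10 nM 0.22, not called with it. The probe set used is of a kind that can also bind other transcripts, and the further sets gave 1.26 and 1.49 with romidepsin at 30 nM in CD4 cells, 0.82 and 0.83 with vorinostat at 10 µM there, and 0.51 and 0.71 in CD8 cells. The call with romidepsin at 30 nM in CD4 cells was kept in all 9 alternative fits. That at 10 nM ended without its replicate 1 (1.43), its replicate 2 (1.28) or control replicate 1 (0.91), and that of vorinostat in CD4 cells without control replicate 1 (1.07). In CD8 cells the vorinostat call ended without control replicate 1 (0.69), vorinostat replicate 1 (1.10) or vorinostat replicate 2 (0.93).

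Cyp51, which encodes lanosterol demethylase, went the other way. Its level was 9.41 and 9.89 with vorinostat at 10 µM in CD8 cells, against 10.90 and 10.70 in controls, without overlap. It fell by 1.15 ± 0.22 (2.22-fold lower, limma adjusted p = 0.00145), its second detected probe set gave -1.05, and the call was kept in all 9 alternative fits. With the block Cyp51 was also lower in CD8 cells with romidepsin at 30 nM (-0.49) and vorinostat at 2 µM (-0.77). In CD4 cells it was lower with the block with romidepsin at 30 nM (-0.37) and vorinostat at 2 µM (-0.72) and 10 µM (-0.50).

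The other 6 genes of these steps were called only with the block. Ebp, a sterol isomerase gene, was lower with it in 7 comparisons, for example at 9.00 and 9.47 with vorinostat at 10 µM in CD4 cells, against 9.88 and 10.34 (-0.88 ± 0.39, limma adjusted p = 0.146, with the block 1.39e-05). Tm7sf2, a sterol reductase gene, was higher in 4, for example at 7.16 and 7.43 with romidepsin at 30 nM in CD4 cells, against 6.06 and 6.85 (0.84, adjusted p = 0.00637 with the block). Sc5d, a sterol desaturase gene, was lower with the block in 5 of the 6 comparisons of CD8 cells and in 1 of CD4 cells, with changes down to -0.89, but its second detected probe set gave 0.51 with romidepsin at 30 nM in CD8 cells, where the one used gave -0.64. Dhcr7, whose reductase makes cholesterol in the last step of one branch, was lower with the block in 3 CD8 comparisons (-0.71 to -0.48). Msmo1, which encodes a methylsterol oxidase, was lower in 2 CD8 comparisons with vorinostat (-0.37 at 2 µM and -0.56 at 10 µM). Nsdhl, a sterol dehydrogenase gene, was lower with vorinostat at 2 µM in CD4 cells (-0.56).

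In the early mevalonate steps the falls were in CD8 cells with vorinostat at 10 µM. Hmgcs1, whose product makes the precursor of mevalonate, lay at 12.20 and 12.32 there, against 13.43 and 12.84 in controls. It fell by 0.88 ± 0.23 (1.83-fold lower, limma adjusted p = 0.0113), and 4 further probe sets gave -0.86 to -1.12. Pmvk, which encodes phosphomevalonate kinase, lay at 8.62 and 9.18, against 9.61 and 9.68, and fell by 0.75 ± 0.24 (limma adjusted p = 0.0349). Neither gene's groups overlapped. The Hmgcs1 call ended without control replicate 1 (-0.58) or vorinostat replicate 1 (-0.82), and the Pmvk call without control replicate 1 (-0.78), control replicate 2 (-0.72) or vorinostat replicate 1 (-0.47). With the block Hmgcs1 was also lower in CD8 cells with romidepsin at 30 nM (-0.48) and vorinostat at 2 µM (-0.42).

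Mvk and Idi1 differed only with the block. Mvk, the mevalonate kinase gene, lay at 6.63 and 7.66 with romidepsin at 30 nM in CD4 cells, against 4.43 and 6.51 (1.68 ± 1.03, limma adjusted p = 0.297, with the block 4.34e-05). The 2 control arrays lay further apart than the change itself, and Mvk was higher with the block in 5 comparisons. A second probe set gave 0.55 there. Idi1, which encodes an isomerase of isoprenoid units, was lower with the block with vorinostat at 2 µM in CD4 cells (10.58 and 10.50, against 11.37 and 11.38, -0.84) and in 3 CD8 comparisons (-0.83 to -0.39). Mvd, a decarboxylase gene, and Fdps, which encodes farnesyl diphosphate synthase, were the only 2 tested members with no call in either fit. Their changes ranged from -0.56 to 0.04 and from -0.27 to 0.21.

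Of the sterol sensors, Insig1 was called lower without the block in CD8 cells. Its level there was 10.12 and 10.24 with romidepsin at 30 nM, 10.11 and 10.31 with vorinostat at 2 µM and 9.77 and 9.91 at 10 µM, against 11.66 and 11.12 in controls, with no overlap. It fell by 1.21 ± 0.30 (2.31-fold lower, limma adjusted p = 0.0142), by 1.18 ± 0.30 (adjusted p = 0.0382) and by 1.55 ± 0.30 (2.93-fold, adjusted p = 0.00153). The last call was kept in all 9 alternative fits. In CD4 cells Insig1 lay at 11.32 and 10.59 with romidepsin at 30 nM and at 10.85 and 10.44 with vorinostat at 10 µM, against 11.70 and 11.11. These groups overlapped for romidepsin, and the changes of -0.45 and -0.76 were called only with the block (limma adjusted p = 0.343 and 0.0909, with the block 0.032 and 0.00134). With the block Insig1 was lower in 8 of the 12 comparisons. Among them were vorinostat at 2 µM (-0.89) and romidepsin at 10 nM (-0.60) in CD4 cells, and romidepsin at 10 nM in CD8 cells (-0.63). In CD8 cells the call with romidepsin at 30 nM ended without its replicate 1 (-1.14) or control replicate 1 (-0.94), and after quantile normalization (adjusted p = 0.0627). The call with vorinostat at 2 µM ended without any 1 of its 4 arrays (-1.08 without vorinostat replicate 1, -1.28 without its replicate 2, -0.91 without control replicate 1 and -1.45 without control replicate 2). It also ended with equal medians (adjusted p = 0.0532) and after quantile normalization (adjusted p = 0.131).

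The genes of the factors that INSIG1 holds back were called only with the block. Srebf1 was lower in 7 comparisons with it, for example at 8.73 and 9.58 with vorinostat at 10 µM in CD8 cells, against 9.65 and 10.14 (-0.74 ± 0.49, limma adjusted p = 0.344, with the block 0.000279). Srebf2 lay at 6.81 and 8.92 there, against 8.99 and 9.48 (-1.37 ± 0.67, limma adjusted p = 0.177, with the block 0.000333). Its change was -2.18 in replicate 1 and -0.56 in replicate 2, and a second probe set gave -0.20. Scap was higher with the block in 3 CD4 comparisons, by 0.26 to 0.41. Insig2, a second INSIG gene, was higher with it at 2 µM vorinostat in CD4 (0.47) and CD8 cells (0.45), where its dimmest probe set gave -0.08 and -0.04.

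Transport and export genes were few. Stard4, which encodes a carrier of cholesterol within the cell, was not called with any drug without the block. With the block it was lower with romidepsin at 30 nM in CD4 cells (-0.35) and vorinostat at 10 µM in CD8 cells (-0.36). Another Stard4 probe set, nearly as bright (mean 10.73, against 10.81 for the set used), gave -0.89 in each of these comparisons. With vorinostat at 10 µM in CD4 cells it gave -0.61, where the set used gave -0.14. The dimmest set (mean 9.65) gave -0.34, -0.23 and -0.12 in these comparisons, in the order named. Abcg1, an exporter gene, lay at 7.96 and 7.83 with romidepsin at 30 nM and at 7.92 and 7.77 with vorinostat at 10 µM in CD8 cells, against 6.72 and 7.16 in controls. It rose by 0.95 ± 0.23 (1.93-fold, limma adjusted p = 0.0138) and by 0.90 ± 0.23 (1.87-fold, adjusted p = 0.011), with no overlap. In CD4 cells the level was 7.68 and 7.68 with romidepsin at 30 nM and 7.68 and 8.05 with vorinostat at 10 µM, against 6.91 and 7.57, and these changes were called only with the block (adjusted p = 0.0485 and 0.00837 with it). The CD8 calls ended without control replicate 1 (0.73 with romidepsin, 0.68 with vorinostat) or the drug's replicate 1 (0.89 and 0.83). They also ended with the mean of all probe sets (0.78 and 0.61), the second set of Abcg1 being over the detection level in 14 arrays. Abca1, under the detection level, ranged from 2.28 to 3.78 over all arrays.

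**Figure D4:**
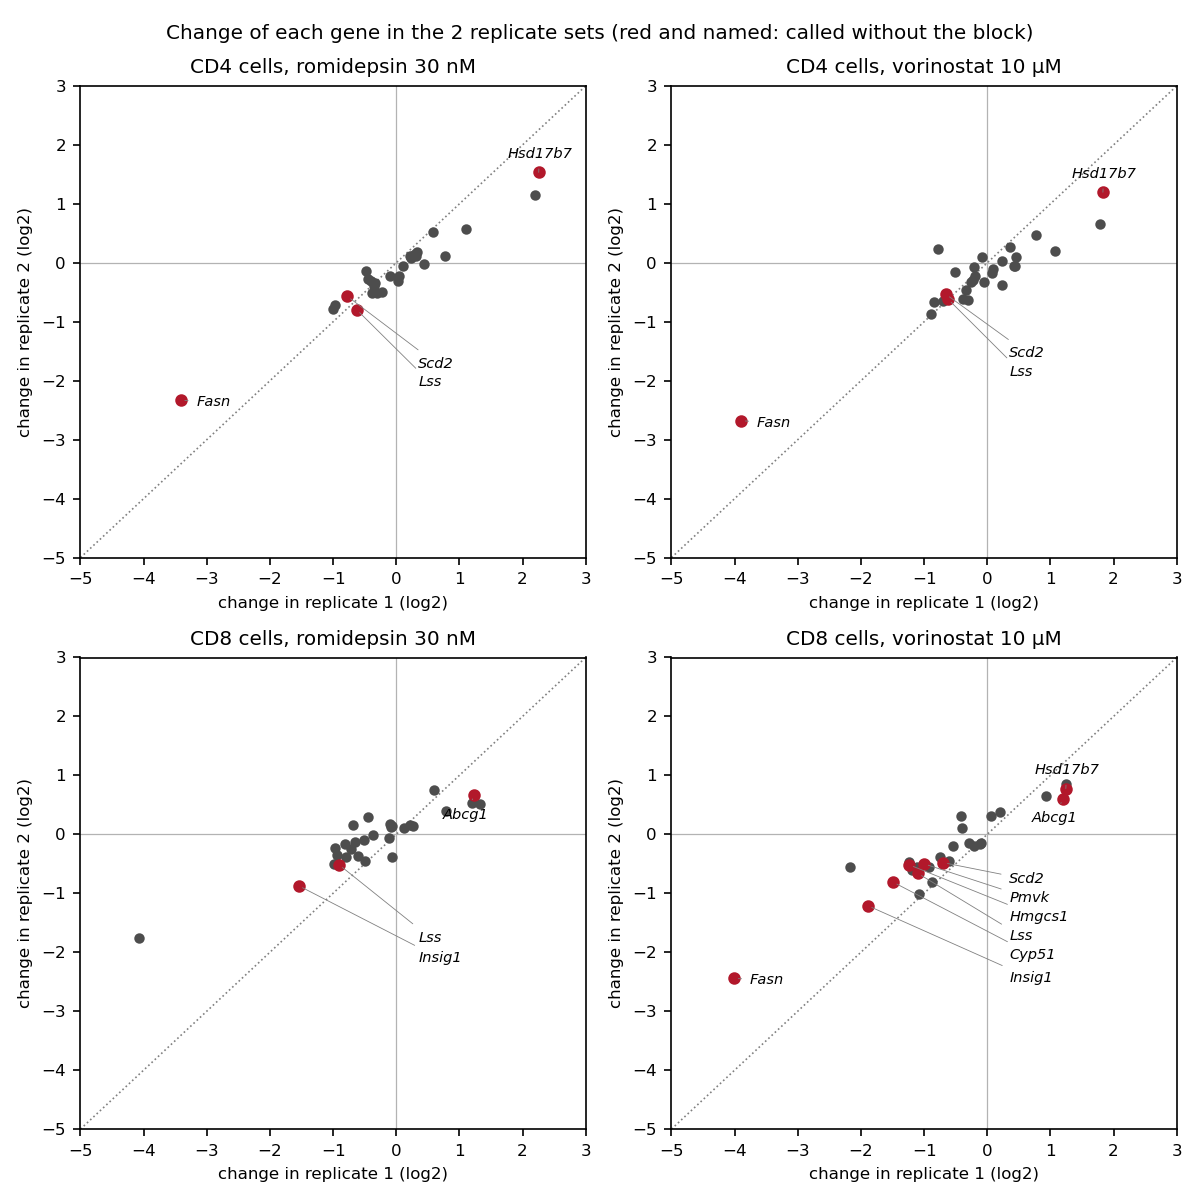
Change of each of the 29 genes at the top doses in replicate 1 (x axis) and replicate 2 (y axis), in log2 units, with the dotted line marking equal change. Genes called without the block are red and named. Fasn lies above the line in all 4 panels, its fall being larger in replicate 1 (-4.01, against -2.44 in replicate 2, with vorinostat at 10 µM in CD8 cells).

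Between the middle and the top dose no member passed by limma without the block. At an unadjusted p under 0.05 there were 0 for romidepsin and 3 for vorinostat in CD4 cells, and 0 and 2 in CD8 cells. No share of all genes was counted by that looser rule. At the adjusted p, where no member was called, 0.122% and 5.42% of all genes were called in CD4 cells and 0.466% and 4.88% in CD8 cells. With the block the steps gave 2, 10, 3 and 7 calls in the same order, against 10.7%, 43.7%, 20.8% and 41.4%. In CD4 cells the 2 romidepsin calls were Mvk (0.92) and Idi1 (0.52), both higher at 30 nM, as were 6.43% of all genes. In CD4 cells 7 of the 29 members were called higher with vorinostat at 10 than at 2 µM, a share near the 25.9% of all genes. Among these, Idi1 was at 11.32 and 11.06 at 10 µM, against 10.58 and 10.50 at 2 µM, and Sqle at 9.70 and 9.59, against 8.85 and 9.20. In CD8 cells 5 of the 29 members were called lower with vorinostat at 10 than at 2 µM, a share near the 18.6% of all genes. Among them were Hmgcs1 (-0.45) and Scd2 (-0.49, limma adjusted p = 0.0781, with the block 0.00323). In CD8 cells Fasn and Insig1 were lower and Hsd17b7 higher at 30 than at 10 nM romidepsin with the block (-1.69, -0.58 and 0.64). The doses of the 2 drugs are not matched, so their values stand side by side without a test.

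Among the controls, which had no drug, the 2 cell types differed in 1 member. Stard4 lay at 10.67 and 10.27 in CD8 controls and at 11.28 and 11.28 in CD4 controls, and was lower in CD8 cells by -0.81 ± 0.19 (limma adjusted p = 0.0152), as 1 of 29 members, against 6.22% of all genes (3.8% lower). The count was 0 without CD8 control replicate 2 and without CD4 control replicate 1 or 2. With the block 11 members differed, 8 higher and 3 lower in CD8 cells, against 37.5% of all genes (21.2% higher and 16.3% lower). Sterol synthesis genes were among those higher in CD8 controls with the block, such as Idi1 (12.89 and 11.91, against 11.37 and 11.38 in CD4 controls, 1.02) and Cyp51 (0.54), and so was Acaca (1.06). Insig2 and Scd2 were lower in CD8 controls (-0.76 and -0.52).

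Drug changes did not differ between the cell types for any member by limma without the block. At an unadjusted p under 0.05 there were 2 members with romidepsin at 10 nM, 2 at 30 nM, 0 with vorinostat at 2 µM and 1 at 10 µM. No share of all genes was counted by that looser rule. At the adjusted p, where no member was called, 0.0709%, 1%, 0.0101% and 0.577% of all genes were called. With the block the counts were 1, 2, 0 and 3, against 8.4%, 17.6%, 1.45% and 10.7%. The intervals of such differences were wide: for Fasn with vorinostat at 10 µM the change was -3.22 in CD8 and -3.29 in CD4 cells, and the 95% interval of the difference ran from -2.68 to 2.80.

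Genes of neighbouring pathways were read from 4 lists. Of 20 tested genes of other fatty acid synthesis steps, 3 rose and 1 fell in CD8 cells with vorinostat at 10 µM, and 3 rose and 2 fell in CD4 cells (8 and 7, and 7 and 6, with the block). Of all tested genes, 12% rose and 8.5% fell in CD8 cells (31.6% and 32.4% with the block), and 10.9% rose and 7.1% fell in CD4 cells (61.2% called in either direction with the block). Acss2, which encodes a cytosolic acetyl-CoA synthetase, rose by 1.94 ± 0.29 in CD8 cells (a mean of 8.73 with vorinostat, against 6.80 in controls, limma adjusted p = 0.00019) and by 1.75 ± 0.29 in CD4 cells (adjusted p = 0.000469). It also rose with romidepsin at 30 nM, by 2.24 in CD4 and 1.83 in CD8 cells, and at 10 nM in CD4 cells, by 1.93. Fads2, a fatty acid desaturase gene, fell by 2.87 ± 0.63 in CD8 cells with vorinostat at 10 µM (7.30-fold lower, adjusted p = 0.00421) and by 2.25 ± 0.63 in CD4 cells (adjusted p = 0.0205). Elovl7, a fatty acid elongase gene, rose at least 2.17-fold with vorinostat at 10 µM in CD4 cells, where the control mean of 3.78 was under the detection level (adjusted p = 0.00135), and by 1.08 in CD8 cells. Mlxipl, which encodes a carbohydrate-responsive transcription factor and is among the 3 called higher in CD8 cells (limma adjusted p = 0.026), was at 3.93 and 6.18 with vorinostat at 10 µM, against 2.27 and 2.25 in controls, so 1 of these 4 arrays was over the detection level.

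Of 17 tested other sterol and isoprenoid genes, 4 rose and 1 fell in CD8 cells with vorinostat at 10 µM (7 and 2 with the block), and 2 rose with romidepsin at 30 nM in CD4 cells (10 up and 2 down with the block). The shares of all genes in CD8 cells are those above, and in CD4 cells with romidepsin at 30 nM 13.3% of all genes rose and 7.91% fell (63.7% called in either direction with the block). Tmem97, which encodes a sterol-binding membrane protein, fell by 2.29 ± 0.66 in CD8 cells (4.89-fold lower, limma adjusted p = 0.0205). Dhdds, which acts in dolichol synthesis, rose by 0.96 there and by 1.22 with romidepsin at 30 nM in CD4 cells, and Npc2, a lysosomal cholesterol carrier gene, rose by 0.96. Acat1, whose product can join acetyl groups in mitochondria, rose by 0.67 to 0.87 in 3 comparisons. Of 13 tested fatty acid oxidation genes, 3 rose with vorinostat at 10 µM in CD8 cells and none fell, against 12% and 8.5% of all genes. These 3 were Acadvl (0.99 ± 0.19, limma adjusted p = 0.00145), Cpt1a (0.93 ± 0.25, adjusted p = 0.0159) and Hadha (0.92 ± 0.19, adjusted p = 0.00309). With the block 7 of the 13 were higher and 3 lower. Of 6 tested liver X receptor and efflux genes besides the members, limma called none without the block in that comparison (0 at an unadjusted p under 0.05). With it 3 were higher and 1 lower in CD8 cells with vorinostat at 10 µM. For both lists the shares of all genes with the block are those given above for this comparison. The median changes in that comparison were -0.07 for the fatty acid synthesis list, 0.33 for the sterol list, 0.39 for the oxidation list and 0.12 for the efflux list, against 0.00 for all tested genes.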

How the data were processed

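RNA of 28 mouse T cell samples was read on Affymetrix Mouse430_2 arrays. The deposited values are log2 expression from GCRMA, per the submitters' processing notes. The log base is not stated and was read from the range of values, which reached 16.73. A gene was read from its brightest probe set by mean over all arrays, among probe sets that name 1 gene. Of 18194 genes, 9871 exceeded 4.27, the mode of all values plus 2, in at least 2 arrays and were tested. limma 3.58.1 in R 4.3.3 was fitted over 14 groups of 2 arrays, with Benjamini-Hochberg adjustment over all tested genes in each comparison. Promoters were searched with Python 3.11.15.

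Arrays sharing a replicate number deviated together (correlations of 0.762 to 0.941 over 21 pairs of CD4 groups and 0.768 to 0.958 over 21 pairs of CD8 groups), so a fit with that number as a block within each cell type stands beside the main one. The labels do not say what the number marks. Other alternatives were quantile normalization, equal array medians, no detection filter, the mean of all probe sets and leaving out each array. The number of arrays limits the precision: the 95% interval of a change was ± 0.97 without the block and ± 0.35 with it (medians over all tested genes). Every member was to be named, with values per array for those called in a drug comparison, and at most 4 genes a list by size of change, only where called. Values of members called only with the block were added. Members and lists were chosen with earlier results of these data known. The fit was also run on simulated data, but the outcome is not given here, so that run says nothing about the results above.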

Additional observations from a re-analysis of the deposited data

Results flagged for a closer look

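Changes differed between CD8 and CD4 cells for 4 genes in the fit with the replicate block, and none of these differences passed limma without it. With the block 1 of 29 members differed with romidepsin at 10 nM, 2 at 30 nM and 3 with vorinostat at 10 µM. The shares of all genes were 8.4%, 17.6% and 10.7%, so members were called no more often than genes in general. Each value is the CD8 change minus the CD4 change. For Hsd17b7 it was -1.13 with romidepsin at 10 nM (limma adjusted p = 0.669, with the block 0.0215) and -1.03 at 30 nM (0.545, with the block 0.0172), the rise being the smaller in CD8 cells in both replicates. For Insig1 it was -0.76 with romidepsin at 30 nM (limma adjusted p = 0.801, with the block 0.0417) and -0.79 with vorinostat at 10 µM (1, with the block 0.0482). For Pmvk it was -0.74 with vorinostat at 10 µM (limma adjusted p = 0.882, with the block 0.0205). For Sc5d it was -0.68 with vorinostat at 10 µM (limma adjusted p = 1, with the block 0.0238), and the second detected probe set of Sc5d gave changes of 0.12 in CD8 and 0.48 in CD4 cells.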

How the results depend on the processing

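Of the 25 calls, 25 were kept with the replicate block, 24 with equal medians, 24 with no detection filter, 17 after quantile normalization and 15 with the mean of all probe sets. None changed sign, 56 of 100 fits that left out 1 array ended a call, and 3 calls were kept in every alternative (Hsd17b7 with romidepsin at 30 nM in CD4 cells, Cyp51 and Insig1 with vorinostat at 10 µM in CD8 cells). With the replicate block the counts of called members in CD4 cells were 12 and 16 with romidepsin at 10 and 30 nM, and 1, 15 and 15 with vorinostat at 0.5, 2 and 10 µM. In CD8 cells they were 4 and 16, and 1, 16 and 22. The block gave 11 between the controls, 1, 2 and 3 for the differences between cell types with romidepsin at 10 and 30 nM and vorinostat at 10 µM, and 2, 10, 3 and 7 for the dose steps (romidepsin and vorinostat in CD4, then in CD8 cells). Quantile normalization gave 0 with vorinostat at 2 µM in CD4 cells, 5 with romidepsin at 30 nM and 14 with vorinostat at 10 µM in CD8 cells, 3 between controls, and 1 and 2 for the vorinostat steps in CD4 and CD8 cells. The mean of probe sets gave 1 with romidepsin at 10 nM and 0 with vorinostat at 2 µM in CD4 cells, 0 between controls and 1 for the CD4 vorinostat step. With no detection filter there were 2 between controls and 1 for the CD8 vorinostat step. Leaving out 1 array gave 0 to 2 and 1 to 3 calls with romidepsin at 10 and 30 nM and 0 to 1 and 0 to 3 with vorinostat at 2 and 10 µM in CD4 cells. In CD8 cells it gave 0 to 3 with romidepsin at 30 nM, 0 to 1 and 2 to 9 with vorinostat at 2 and 10 µM, and 0 to 1 between controls. Apart from the fewer arrays in the last of these, the cause was not tested. Shares of all genes called were counted only for the main fit and the fit with the block. Under the other settings, a shift in calls of members cannot be told apart from a shift in calls over all genes. Having 2 arrays a group and the probe set chosen limit these results.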
